A study of Mus musculus with 10 samples.

Results

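Transcript levels of 8 transcription factor genes around the circadian clock were examined on 10 Affymetrix whole-transcript arrays. They are the orphan nuclear receptors Rora and Rorb, the PAR bZIP activators Dbp, Tef and Hlf, the bZIP repressor Nfil3, and the basic helix-loop-helix repressors Bhlhe40 and Bhlhe41. Members were taken by symbol, from probe sets that the platform annotation pairs with exactly 1 gene, and the brightest probe set over all arrays was kept for each gene. All 8 were found among 22180 genes read this way, 7 with 1 probe set and Tef with 2, and all 8 passed the filter on dim signal that left 17712 genes for testing.

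The arrays carried RNA of cells sorted by FACS from the cortex of mice 8 weeks of age, on EGFP that was expressed in astrocytes. Of the 10, 5 were labelled wild-type control and 5 FMR1 knockout, and the study compared these groups. Not given in the sources used here are the promoter that drives EGFP, the Fmr1 allele, the strain, the hour of tissue collection and the number of animals per array. The titles call the replicates biological without naming separate animals, so each p-value reflects only how far these samples spread, which may be partly technical.

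Loops of transcription factors drive the circadian clock. CLOCK or NPAS2 pairs with the product of Arntl, also called BMAL1, and switches on genes with E-boxes, among them the Per and Cry genes, Nr1d1, Nr1d2, Dbp and Bhlhe41. ROR receptors activate and the NR1D repressors silence Arntl through a shared response element. DBP, TEF and HLF activate and NFIL3 represses genes with D-boxes, while BHLHE40 and BHLHE41 compete at E-boxes. Genes switched on directly by E-boxes, such as Dbp and Nr1d1, therefore peak at another time of day than Arntl and Npas2. Several of these genes also mark cell types: Rorb is prominent in cortical astrocytes, and Bhlhe41 is expressed in microglia and other macrophages.

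The sequences just before the annotated start sites were read from RefSeq for build GRCm38.p6, where 7 of the 8 genes matched, with 9 windows of 250 bases. Bhlhe40 is the other gene. The searched motifs were the E-box CACGTG, its variant CACGTT, the D-boxes TTATGTAA and TTACGTAA, and AGGTCA, the core of the ROR element, each on both strands, and no matches of different motifs overlapped in these windows. Of the 9 windows, 3 held the E-box, as did 6.02% of the 32851 windows of all genes. Tef had it in both of its windows and Bhlhe41 in its only one. The shares of all windows were 3.85% for CACGTT, 0.819% for TTATGTAA, 0.113% for TTACGTAA and 14% for AGGTCA. The inner of the Rorb windows held CACGTT and the Nfil3 window AGGTCA, both within the annotated gene. A match describes letters and is not evidence of binding. Of the 4 windows that lie wholly outside the gene, 3 are shown, with matches in capitals, because Tef and Bhlhe41 share the E-box and differ in their pattern over the arrays, while Rorb varied most and its outer window held no match.
Tef, chr15:81802423-81802672, plus strand: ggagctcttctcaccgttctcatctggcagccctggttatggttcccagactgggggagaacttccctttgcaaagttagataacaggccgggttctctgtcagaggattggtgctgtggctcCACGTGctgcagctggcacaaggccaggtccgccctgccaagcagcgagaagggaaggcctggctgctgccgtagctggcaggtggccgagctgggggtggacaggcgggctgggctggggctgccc
Bhlhe41, chr6:145865421-145865670, minus strand: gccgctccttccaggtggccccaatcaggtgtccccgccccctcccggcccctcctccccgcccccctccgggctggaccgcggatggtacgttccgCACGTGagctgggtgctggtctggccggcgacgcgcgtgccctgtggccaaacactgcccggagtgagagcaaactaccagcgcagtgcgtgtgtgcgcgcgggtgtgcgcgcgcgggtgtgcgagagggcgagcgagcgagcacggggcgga
Rorb, chr19:19111197-19111446, minus strand: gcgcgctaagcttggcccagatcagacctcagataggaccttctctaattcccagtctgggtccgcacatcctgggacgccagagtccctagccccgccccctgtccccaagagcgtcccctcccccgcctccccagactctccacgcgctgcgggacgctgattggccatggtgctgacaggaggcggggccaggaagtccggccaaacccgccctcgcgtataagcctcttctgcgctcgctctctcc

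Values are log2 signal per probe set as deposited, and levels of different genes are not compared, because probes differ in brightness. Fmr1 signal was no lower under the knockout label, at 8.01 to 8.38 against 7.60 to 8.28 in controls, so those arrays are called KO-labelled. Whether its probe set reads the disrupted part of the gene is unknown. Control arrays 2 and 3 had Xist signals of 10.60 and 10.98, as female cells do, and no other array exceeded 5.23. The astrocyte transporter gene Slc1a2 read 10.7 to 11.8. The sorted material also held microglia RNA, since the microglia receptor gene Cx3cr1 read 10.1 to 11.9. The mean of 29 microglia markers was 9.74 on control array 1, 9.62 on KO-labelled array 1 and 9.03 on KO-labelled array 2, and 10.1 to 10.7 on the other 7. The mean of 29 astrocyte markers ran the other way, from 10.2 to 10.7 on those 3 arrays and from 9.48 to 9.89 on the rest. The dissociation stress genes, which rise when tissue is taken apart, averaged 8.03 to 8.69 on the same 3 arrays and 9.16 to 9.76 on the rest. Neuron markers averaged 5.81 to 6.05 on all arrays and oligodendrocyte markers 6.41 to 6.79. The defining neuron marker Snap25 read 6.14 to 6.59, while Ttr of the choroid plexus read 12.7 to 13.8. In such bulk material, fewer cells of a type and less RNA per cell cannot be told apart.

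Rora and Rorb, the ROR receptors, were both highest on the arrays with the least microglia signal. Rora read 8.95, 8.02, 8.30, 8.45 and 8.29 on control arrays 1 to 5 and 9.23, 9.21, 8.48, 8.54 and 8.44 on KO-labelled arrays 1 to 5. Control array 1 and KO-labelled arrays 1 and 2 stood above all others, and the groups overlapped. Rorb read 9.50, 8.58, 8.88, 9.48 and 8.89 on the controls and 10.37, 10.77, 9.31, 9.42 and 9.29 on the KO-labelled arrays. It reached its peak on KO-labelled arrays 1 and 2, but control array 4, rich in microglia signal, read nearly as high as control array 1. Over all arrays the Rorb level spanned 2.19 log2 units, where the median gene tested spanned 0.58, and its SD was at percentile 99.2 of the tested genes.

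Dbp, an activator and one of the most strongly rhythmic transcripts in mouse tissues, tracked the 3 arrays low in microglia markers less closely. It read 8.78, 8.94, 8.51, 8.70 and 8.36 on control arrays 1 to 5, and 9.14, 10.12, 8.44, 8.52 and 8.60 on the KO-labelled arrays. KO-labelled array 2 lay 0.98 above the next array, KO-labelled array 1, and the highest control was array 2, not array 1. Tef read 7.40, 7.14, 7.15, 7.17 and 7.06 on the controls and 7.58, 7.74, 7.31, 7.29 and 7.12 on the KO-labelled arrays. The 3 arrays low in microglia markers again led, in a narrower span of 0.68. The dimmer Tef probe set, at 6.17 to 6.41 on controls and 6.39 to 6.77 on KO-labelled arrays, was also highest on KO-labelled array 2. Hlf read 7.87, 7.56, 7.66, 7.80 and 7.63 on the controls and 8.31, 8.15, 7.94, 7.91 and 7.53 on the KO-labelled arrays. Its maximum lay on KO-labelled array 1 and its minimum on KO-labelled array 5, so this group alone spanned its full range of 0.78.

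The repressors did not share 1 pattern. Nfil3, the D-box repressor, read 6.72, 6.79, 6.60, 6.49 and 7.10 on control arrays 1 to 5 and 6.52, 6.70, 6.70, 6.66 and 6.54 on the KO-labelled arrays. Control array 5 stood highest, and the KO-labelled arrays lay within 0.18 of each other, inside the control range. Bhlhe40, also called DEC1, read 8.81, 8.25, 8.11, 8.58 and 8.24 on the controls and 9.15, 9.53, 8.43, 8.49 and 8.50 on the KO-labelled arrays. Its 3 highest values fell on the 3 arrays low in microglia markers. Its paralog Bhlhe41, also called DEC2, ran the other way and read 8.67, 9.08, 9.11, 9.25 and 9.28 on the controls, with its minimum on control array 1. On the KO-labelled arrays Bhlhe41 read 8.79, 9.0, 9.03, 9.01 and 8.92, all inside the control range.

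**Figure D1:**
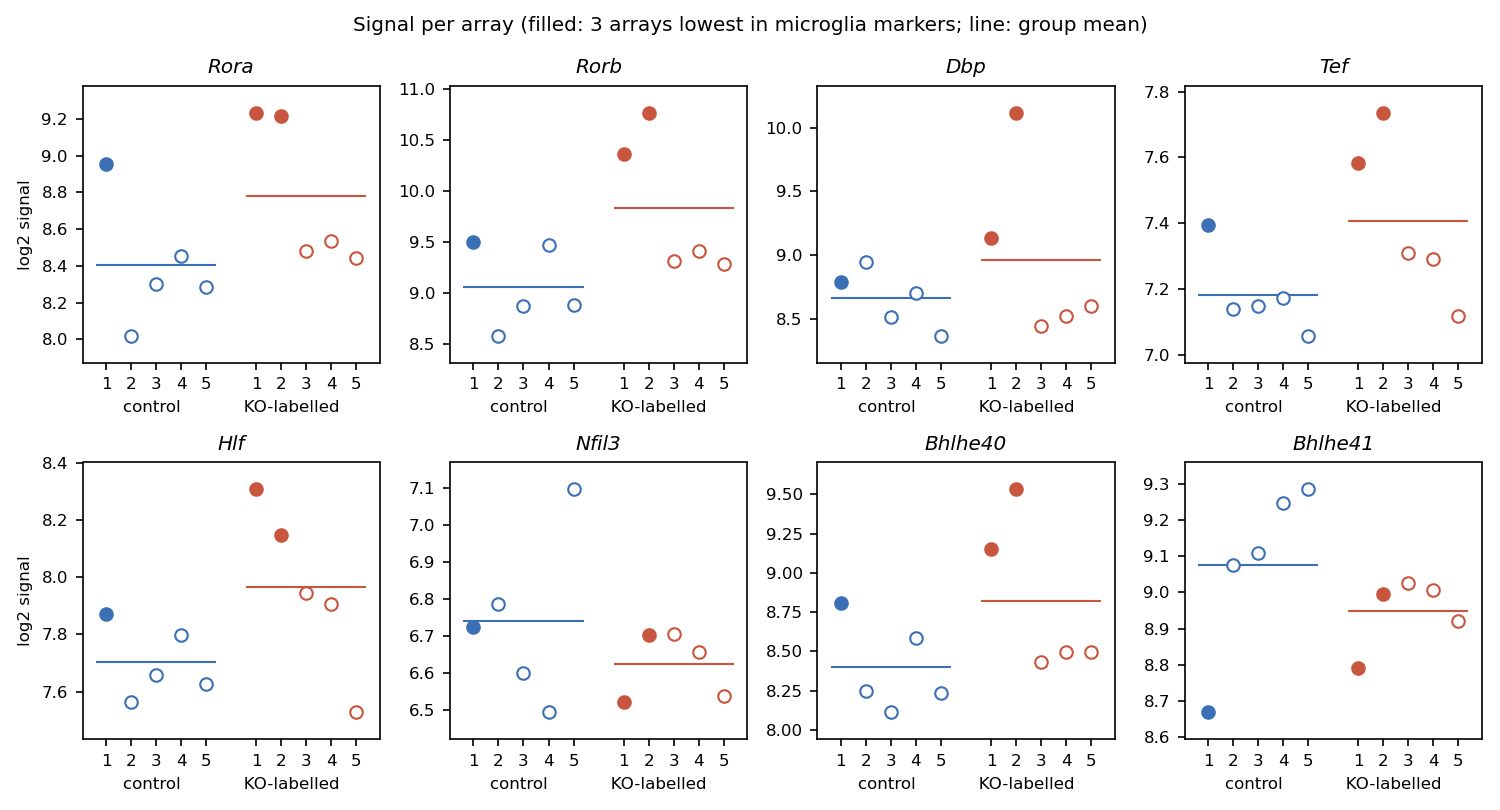
Log2 signal of the 8 genes (vertical axes, scaled per gene) on control arrays 1 to 5 (blue) and KO-labelled arrays 1 to 5 (red). Each point is an array, lines are group means, and filled points are control array 1 and KO-labelled arrays 1 and 2, which hold the 3 highest values of Rora, Rorb, Tef and Bhlhe40 and the minimum of Bhlhe41.

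Between the groups, the mean of 6 of the 8 genes was higher and that of 2 was lower in KO-labelled arrays, and none passed the test. The means ± SD (n = 5 each) of Rorb were 9.83 ± 0.69 in KO-labelled arrays and 9.06 ± 0.41 in controls, a difference of 0.77 ± 0.30 (SE) with a 95% interval of 0.12 to 1.42. Every KO-labelled array lay above the control mean, with a limma Benjamini-Hochberg adjusted p of 0.654. Bhlhe40 differed by 0.42 ± 0.22 (SE), Rora by 0.38 ± 0.20, Dbp by 0.30 ± 0.28, Hlf by 0.26 ± 0.13 and Tef by 0.22 ± 0.12. Nfil3 differed by -0.12 ± 0.11 (SE) and Bhlhe41 by -0.13 ± 0.11, each lower than the control mean in 5 of 5 KO-labelled arrays. The limma adjusted p was 0.654 or higher for all 8. Of the 17712 genes tested, limma called 0, or 0%, at an adjusted p under 0.05. Before adjustment 1334 genes, or 7.53%, had p under 0.05, and Rorb was the 1 member among them.

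Most of these differences were smaller without the arrays that held the least microglia signal. When control array 1 and KO-labelled arrays 1 and 2 were left out, a choice made with the data in view, the mean of Rorb was 9.34 in 3 KO-labelled arrays and 8.96 in 4 controls, a difference of 0.39. Bhlhe40 then differed by 0.18, Rora by 0.22, Hlf by 0.13 and Tef by 0.11. Dbp turned to -0.11, with means of 8.52 and 8.63. The repressors Bhlhe41 and Nfil3, whose differences were -0.19 and -0.11 without those arrays, did not shrink in this way. Without KO-labelled array 2 alone, the Dbp difference was 0.01. Once the fit also held the microglia marker mean, Rora differed by 0.02, Bhlhe40 by 0.01, Tef by 0.03, Hlf by 0.11, Rorb by 0.25 and Dbp by -0.18. No member was called in any of these fits (limma adjusted p of 0.545 or higher).

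Each gene was then followed along the microglia marker mean within the groups, in a limma fit with group and that mean as terms. Rorb fell by 0.94 ± 0.18 (SE) per log2 unit of the marker mean, Dbp by 0.88 ± 0.17, Bhlhe40 by 0.75 ± 0.11, Rora by 0.65 ± 0.13 and Tef by 0.35 ± 0.09. These 5 slopes passed the test, with limma adjusted p-values of 0.00240, 0.00219, 3.70e-04, 0.00257 and 0.0158. Over all genes 9.3% were called with a falling slope and 17.1% in either direction, so slopes of this kind were common among all genes. The slope was -0.27 ± 0.13 (SE) for Hlf, 0.01 ± 0.12 for Nfil3 and 0.22 ± 0.11 for Bhlhe41, and none of the 3 passed (limma adjusted p = 0.177, 0.983 and 0.231). With the astrocyte marker mean in its place, Hlf was called as well, rising by 0.49 (limma adjusted p = 0.00892, where the alternatives run gave 0.00892 to 0.686). Bhlhe41, whose microglia expression is background knowledge, had a called slope of 0.47 without KO-labelled array 2 (limma adjusted p = 0.0310, where the alternatives run gave 0.0310 to 0.959). The calls of Hlf and Bhlhe41 each appeared in 1 of 21 alternatives run. For both fits the share of all genes called was not computed, so neither call is shown to be particular to that gene.

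The calls rest on few arrays. Without KO-labelled array 2, the one lowest in microglia markers, the Dbp slope was -0.48, and the calls of Dbp, Rorb and Tef ended (limma adjusted p = 0.132, 0.0674 and 0.158). The Rorb slope was then -0.83 and the Tef slope -0.33, close to their values over all arrays, and Rora and Bhlhe40 were still called. Without all 3 low arrays the marker mean spans only 10.1 to 10.7 and no member was called. The slopes of Rora, Rorb, Tef and Hlf then turned from falling to rising, while those of Dbp and Bhlhe40 stayed falling. With the replicate number added to the fit as a block, none of the 5 was called (limma adjusted p of 0.0997 to 0.409). Their slopes then ran from -1.33 for Rorb to -0.34 for Tef. Whether replicate numbers pair the arrays is not known. The dissociation stress mean moved with the microglia mean, as given above, and its part in these slopes was not tested.

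**Figure D2:**
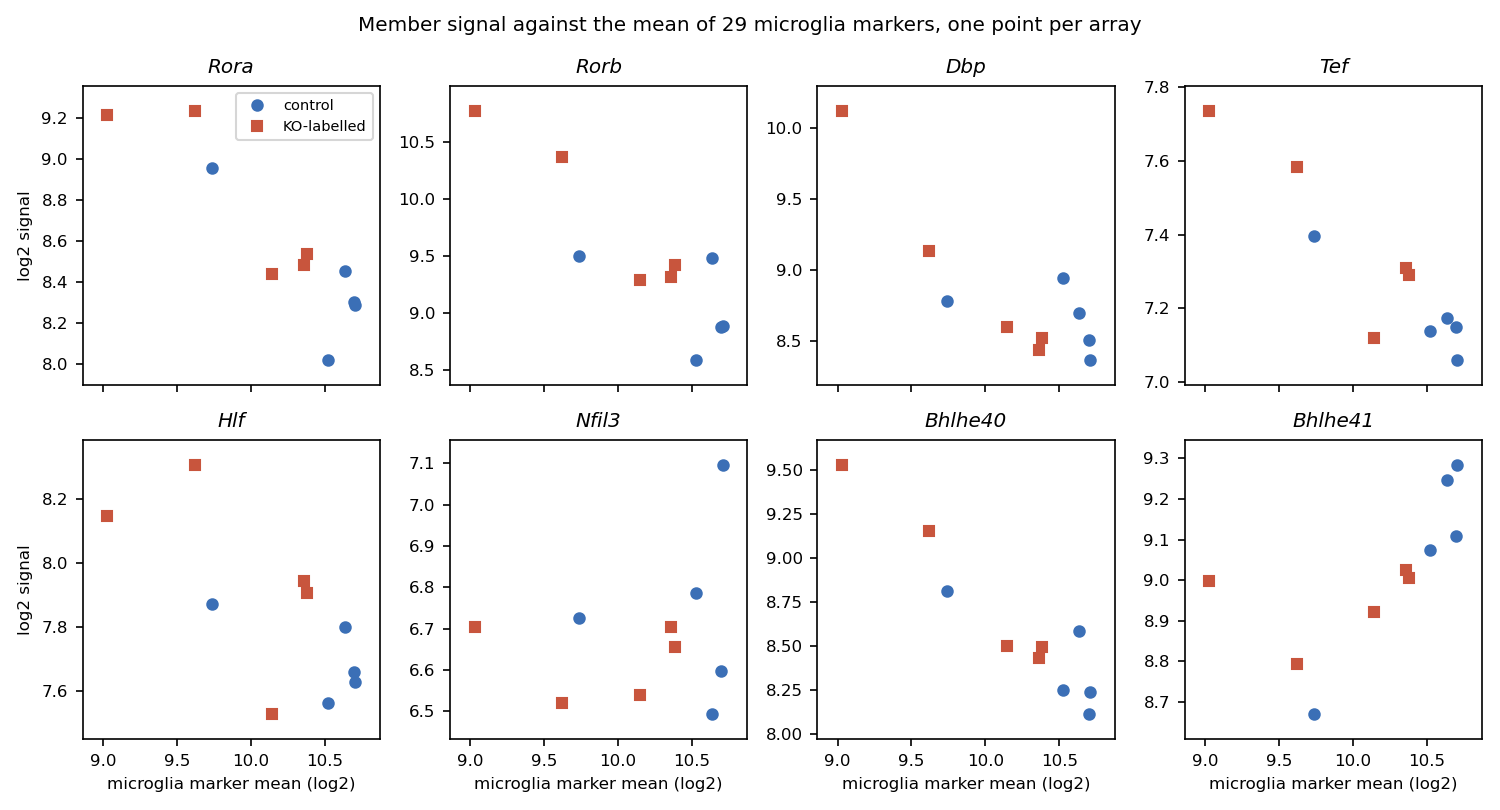
Log2 signal of each gene (vertical axes, scaled per gene) against the mean log2 signal of 29 microglia markers (horizontal axis), 1 point per array, controls as blue circles and KO-labelled arrays as red squares. Rora, Rorb, Tef and Bhlhe40 have their 3 highest values on the arrays with means of 9.03 to 9.74, Dbp has its top 2 there, and the Nfil3 slope was 0.01.

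Other clock genes were combined into a score that used no member. A clock score was formed per array as the mean of Per3, Nr1d1, Nr1d2 and Ciart minus the mean of Arntl, Npas2 and Clock. Per2 was listed for the score and is not analysed here. A score that is high in tissue marks hours when E-box targets are high and Arntl is low. On these arrays the means that form the score rose together, at r = 0.68 over all 10. Over the 7 arrays rich in microglia signal r was -0.35. Whether the score follows the hour here was not tested. It read -0.49, -0.08, -0.26, -0.63 and -0.69 on control arrays 1 to 5 and -0.64, 0.07, -0.67, -0.53 and -0.42 on KO-labelled arrays 1 to 5. KO-labelled array 2 and control array 2 were highest. The score did not separate the groups: its mean was -0.44 ± 0.30 (SD, n = 5) in KO-labelled arrays and -0.43 ± 0.26 (SD, n = 5) in controls, with an exact two-sided permutation p of 0.968, where the smallest p the design allows is 0.00794. That p was also 0.968 after adjustment over 6 array scores.

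The arms of the clock did not oppose each other along cell makeup. Npas2 and Nr1d1, which stand on opposite arms, both fell with the microglia marker mean, by 0.83 ± 0.20 (SE) and 0.81 ± 0.14 per log2 unit (limma adjusted p = 0.00946 and 0.00109). Of the 12 core clock genes measured, 6 had a called falling slope, namely Npas2, Per3, Cry2, Nr1d1, Nr1d2 and Ciart, and 1, the casein kinase gene Csnk1e, rose by 0.61 ± 0.12 (SE). A rising slope was called for 7.76% of all genes. Clock itself had a slope of 0.16 ± 0.12 (SE) that did not pass (limma adjusted p = 0.486). Between the groups, 8 of the 12 had a higher mean in KO-labelled arrays, with a median difference of 0.14 against -0.01 over all genes tested, and 0 passed (limma). Among them Npas2 differed by 0.52 ± 0.29 (SE), Per3 by 0.39 ± 0.17, Nr1d1 by 0.37 ± 0.25, Arntl by 0.32 ± 0.16 and Clock by -0.05 ± 0.12. Of these 5, Per3 was under 0.05 before adjustment, the only core clock gene that was.

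Cell makeup and clock score were set side by side in 1 limma fit with group as the remaining term. In it the same 5 genes kept a called slope on the microglia marker mean: Rorb at -1.07, Rora at -0.81, Bhlhe40 at -0.81, Dbp at -0.68 and Tef at -0.36 (limma adjusted p = 0.00237, 3.89e-04, 7.21e-04, 0.00784 and 0.0264). A falling slope was called for 10.5% of all genes and a slope of either sign for 17.5%. On the clock score 0 of the 8 members and 0% of all genes were called (limma). Before adjustment 2455 genes, or 13.9%, had p under 0.05, and Dbp and Rora were the 2 members among them. The slope on the score was 0.78 ± 0.28 (SE; 95% interval 0.19 to 1.38) for Dbp and -0.60 ± 0.20 (SE; 95% interval -1.04 to -0.16) for Rora, with limma adjusted p-values of 0.279 and 0.266. Leaving out control array 1 gave a Dbp slope of 0.39, and leaving out KO-labelled array 2 gave 0.41. The remaining members had intervals that included 0, from -0.50 for Rorb to 0.18 for Bhlhe41. With the clock score and no makeup term, the Dbp slope was 1.35 ± 0.41 (SE; limma adjusted p = 0.419), and 0.35 without KO-labelled array 2. The Rora slope was 0.08 ± 0.43 (SE; limma adjusted p = 0.962) in that fit, and -0.76 without KO-labelled array 2. Over all arrays its negative slope on the score thus appeared with the makeup term and not without it. In that fit 0% of all genes were called, and Dbp was the 1 member among the 10.4% with an unadjusted p under 0.05. The group differences in the joint fit lay between -0.11 for Nfil3 and 0.17 for Rorb, and 0 of 8 were called (limma; 893 genes, or 5.04%, were under 0.05 unadjusted, and none was a member).

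The joint calls of Rora, Rorb and Bhlhe40 on cell makeup held when any single array was left out, while those of Tef and Dbp did not. Without control arrays 2 and 3, which carried Xist signal, Rora and Bhlhe40 were the 2 members still called. The call of Tef ended on leaving out control array 1 or KO-labelled array 1, 2 or 4, and that of Dbp on leaving out KO-labelled array 2. The Tef call also ended when its 2 probe sets were averaged (slope -0.24, limma adjusted p = 0.106). With the replicate block no joint call of a member remained.

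**Figure D3:**
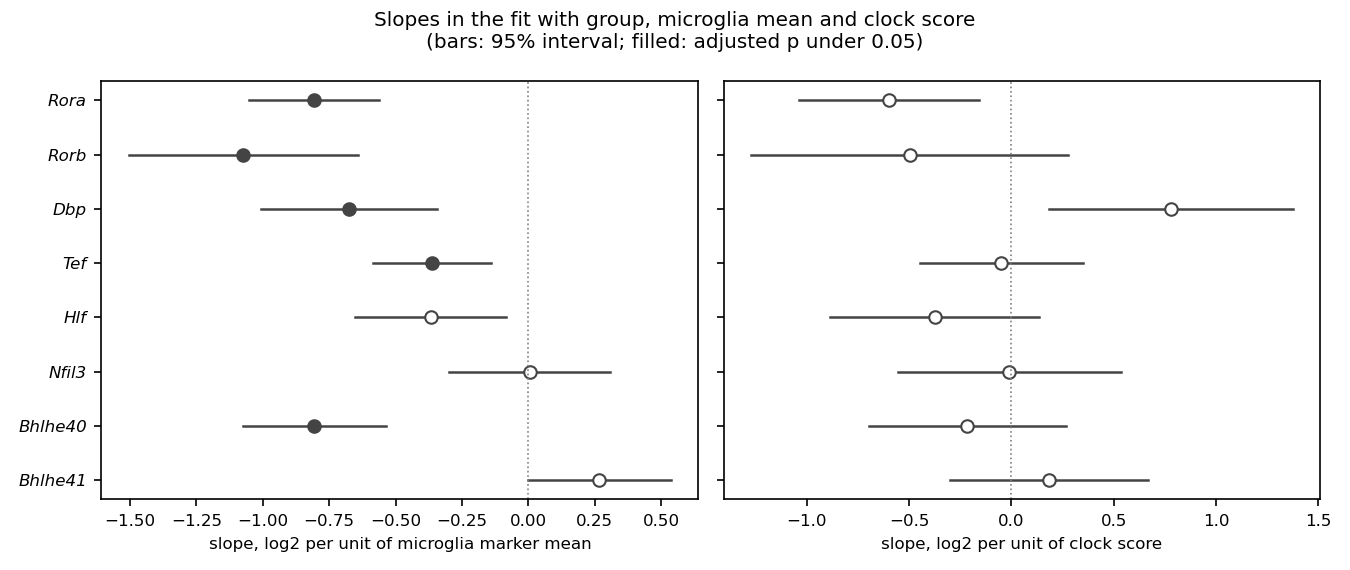
Slopes of the 8 genes on the microglia marker mean (left) and on the clock score (right), both horizontal axes in log2 units per unit, from 1 fit with group. Bars are 95% intervals, and filled points passed an adjusted p under 0.05, as Rora, Rorb, Dbp, Tef and Bhlhe40 did on the left and no gene did on the right.

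Dbp also differed within 2 pairs of arrays of nearly equal astrocyte signal. Within each group the 2 arrays closest in the astrocyte marker mean were compared, by a rule chosen after the data were seen. These were control arrays 2 and 5, which lay 0.02 apart in that mean, and KO-labelled arrays 1 and 2, which lay 0.07 apart. The next closest KO-labelled pair, arrays 3 and 4, lay 0.08 apart and was not used. In each pair the array with the lower clock score was subtracted from the one with the higher. With 1 array a side there is no test. Dbp was 0.58 higher on control array 2 than on control array 5 and 0.98 higher on KO-labelled array 2 than on KO-labelled array 1. In absolute size, 8.37% of genes differed by at least as much in the control pair and 0.288% in the KO-labelled pair. Of 17712 genes, 4 were higher by at least as much in both, Dbp among them by definition, since its own differences set the cutoff. The KO-labelled pair also holds the array with the highest Dbp. These shares and this count describe the 2 pairs and do not measure how unusual Dbp is. On KO-labelled arrays 3 and 4, the pair not used, Dbp read 8.44 and 8.52, with clock scores of -0.67 and -0.53. Their microglia marker means were 10.36 and 10.38.

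The genes of the clock score set the order of the arrays in a pair, so their directions are partly fixed by it, while Dbp is not in the score. The array with more Dbp had less Arntl, by -0.29 in the control pair and -0.27 in the KO-labelled pair. It also had less Npas2, by -0.64 and -0.24, and less Clock, by -0.53 and -0.25. Nr1d1 was higher there by 0.27 and 0.45, Nr1d2 by 0.29 and 0.36, and Per3 by 0.21 and 0.56. The period gene Per1 and the repressor gene Ciart differed in sign between the pairs, at -0.92 and 0.63 for Per1 and -0.30 and 0.48 for Ciart.

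The other members differed by less than Dbp in both pairs. Bhlhe40 was higher by 0.01 and 0.38, where the median absolute difference over all genes was 0.22 in the control pair and 0.14 in the KO-labelled pair. Tef was higher by 0.08 and 0.15, Hlf lower at -0.07 and -0.16, and Rora lower at -0.27 and -0.02. Rorb read -0.30 and 0.40, Nfil3 -0.31 and 0.18, and Bhlhe41 -0.21 and 0.20, each with opposite signs in the control and the KO-labelled pair. Of the 8 members 5 kept their sign across the pairs, and of all genes tested 56.3% did. The pairs were not matched in every respect: the microglia marker mean differed by -0.18 and -0.59, and control array 2 carried Xist signal while control array 5 did not. The part of those differences in the Dbp values was not tested.

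**Figure D4:**
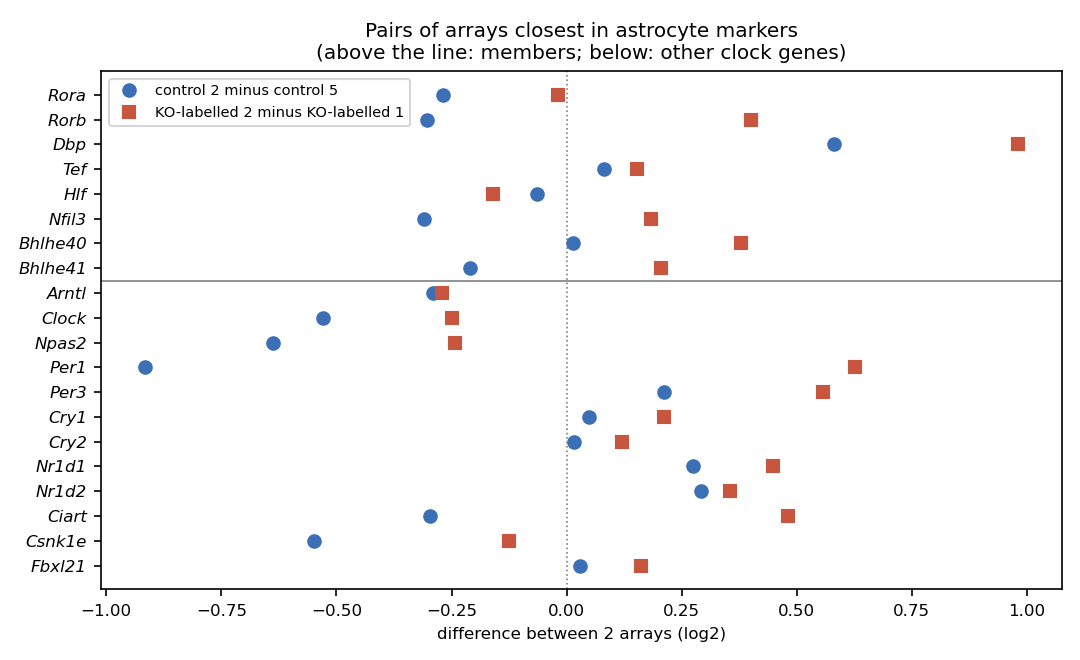
Difference in log2 signal (horizontal axis) between 2 arrays of like astrocyte marker mean, control array 2 minus control array 5 (circles) and KO-labelled array 2 minus KO-labelled array 1 (squares), for the 8 members above the line and 12 core clock genes below it. Dbp, Per3, Nr1d1 and Nr1d2 lie right of 0 in both pairs and Arntl, Clock and Npas2 left of 0 in both. All of these but Dbp are in the clock score that set the order within a pair, so their directions are partly fixed. Ciart, also in the score, differs in sign between the pairs.

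The genes whose levels ran most like each member were taken by Pearson correlation over the 10 arrays. They were chosen for likeness, so no test applies, and the arrays also differ in cell makeup, as given above. For Rorb the nearest were Papss2, Rlbp1 and Rhobtb3 (r = 0.993, 0.988 and 0.986), and over the 7 arrays rich in microglia signal the same genes gave 0.974, 0.930 and 0.936. For Rora they were Aldh7a1, Lrp8 and Alcam (0.991, 0.990 and 0.990), for Bhlhe40 Fermt2, Ttpa and Glud1 (0.991, 0.988 and 0.988), and for Tef Lrrc4b, Myorg and Fbxo44 (0.992, 0.988 and 0.987). Hlf ran nearest to Klhdc7a, Abca2 and the neurotrophin receptor gene Ntrk2 (0.972, 0.966 and 0.965).

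Dbp had its nearest genes in Tnfaip6, Rgcc and Hunk (r = 0.964, 0.960 and 0.959), and over those 7 arrays the values were 0.841, 0.707 and 0.638. Nfil3 ran nearest to the stress-inducible gene Gadd45b, the MAP kinase phosphatase gene Dusp5 and Hcn3 (0.978, 0.898 and 0.889), with 0.981, 0.996 and 0.947 over the 7 arrays. Bhlhe41 ran nearest to Slc35b2, Atf6, which encodes a sensor of unfolded protein, and Pacs1 (0.971, 0.950 and 0.950).

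Wider lists of clock-linked genes gave no called gene between the groups. Of 11 other clock output genes measured, such as Usp2, Wee1 and Pdxk, 4 were higher and 7 lower by mean in KO-labelled arrays, and the median difference was -0.11. Of 11 genes reported as ROR targets, 1 of them the member Nfil3, 4 were higher and 7 lower, and the median was -0.05. That list shares genes with the clock score, and 7 of its genes are outside the score. Over all genes tested 8282 were higher and 9430 lower, and the median was -0.01. Along the microglia marker mean, limma called 1 rising and 1 falling gene of the output list and 2 falling genes of the ROR target list. The latter 2 are core clock genes already counted above. Among all genes 7.76% were called rising and 9.3% falling.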

How the data were processed

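The authors deposited log2 signal per probe set, from 4.31 to 13.9, for 33793 probe sets on 10 arrays with medians between 6.11 and 6.24. The scale was read from the values. Per the labels' protocols, RNA was amplified as cDNA and biotinylated with Affymetrix kits, and the series' design text names GeneSpring for the comparison. How probes were summarised and normalized is not given in the sources used here. Platform annotation pairs 23521 probe sets with 1 symbol, 1814 with several and 8458 with none, and the latter kinds were left out. Genes with a mean under the 25th percentile of probe sets (5.32) were left out of tests.

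Differences and slopes were fitted with limma 3.58.1 in R 4.3.3 (lmFit, eBayes, two-sided, Benjamini-Hochberg over 17712 genes, threshold 0.05). The fits were tested on simulated data. Motifs were searched in Python 3.11.15. The members, lists and scores were chosen with earlier results of these data known. Named are the 8 members, the core clock list and the 3 genes most correlated with each member, leaving out predicted, small RNA, olfactory and vomeronasal genes. The number of arrays limits the precision. Alternatives were other normalizations, filters, probe set rules, variance models, covariates, a replicate block and left-out arrays.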

Additional observations from a re-analysis of the deposited data

Results flagged for a closer look

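Among 48 groups of 5 values checked for a sample far from the others, 1 stood apart, where chance gives about 1 in 20. The mean of the 29 microglia markers was 9.74 on control array 1, against 10.5 on the nearest control and 10.7 on the highest. Bhlhe41 had its minimum and Rora, Rorb, Tef, Hlf and Bhlhe40 their control maximum on that array. No member gene met the same criterion in either group.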

How the results depend on the processing

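No member, and none of Arntl, Clock, Npas2, Per3 and Nr1d1, passed between the groups under any of the alternatives run. The count of genes called was 0 to 1 when single arrays were left out (Cnbd2, at -0.74, without control array 5) and 1 without the 3 arrays low in microglia markers (Tlcd1, at 2.06), and at an unadjusted p it ran from 718 to 2425 against 1334. Leaving out single arrays moved group differences by over 1.5 times for several members: Dbp ran from 0.01 to 0.43, Bhlhe40 from 0.24 to 0.53, Tef from 0.14 to 0.30, Nfil3 from -0.18 to -0.03 and Bhlhe41 from -0.23 to -0.08. With the microglia marker mean and clock score as covariates, differences turned sign for Rora (-0.071), Bhlhe40 (-0.024), Bhlhe41 (0.020), Dbp (-0.066), Npas2 (-0.11), Nr1d1 (-0.048) and Arntl (-0.0047). With 1 covariate, Dbp was -0.18 (microglia), -0.085 (astrocyte) and -0.083 (dissociation stress), Nr1d1 -0.079 (microglia) and -0.047 (astrocyte), and Clock 0.037 (microglia) and 0.025 (dissociation stress). Clock ran from -0.13 to 0.0010 without single arrays. Dbp was -0.11 without the 3 low arrays.

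The 5 members called along the microglia mean were 3 to 5 without single arrays and 0 without the 3 low arrays, where slopes turned to 0.76 for Rora, 0.80 for Rorb, 0.40 for Tef and 1.23 for Hlf. The Nfil3 slope ran from -0.049 to 0.10 without single arrays. In the joint fit the count was 2 without the control arrays with Xist signal, and 0 without the 3 low arrays or with the plus arm of the clock score alone. With that arm the Rora slope on the clock measure, not on makeup, turned to 0.16. With the 2 Tef probe sets averaged or the minus arm alone, 4 members were called in the joint fit, without Tef. Called on the clock measure were 5 members with its plus arm alone and 3 with its minus arm alone, where the Dbp slope was -0.70. The share of all genes called on makeup or clock was not computed for these alternatives. Whether these counts are particular to the members is therefore not known. The clock score difference ran from -0.13 to 0.081 without single arrays, was 0.17 without the Xist arrays and 0.26 on the plus arm. A score without Per2 equals the one used. The cause of these shifts was not tested.

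The groups share replicate numbers, and the labels do not say that these pair the arrays. Between same-numbered arrays 1 to 5, deviations from the group means correlated at r = 0.53, -0.02, 0.19, 0.002 and 0.15, over 0.1 in 3 of 5 pairs. Of 10 arrays, 1 correlated best with its own number. These values do not settle whether the arrays are paired. With the replicate block 0 members were called along the microglia mean and 0 in the joint fit, with 0 genes called between groups, and the joint Dbp slope on the clock score was -0.080. The blocked slopes along the microglia mean were -1.33 for Rorb, -0.84 for Dbp, -0.84 for Bhlhe40, -0.78 for Rora and -0.34 for Tef, so the calls ended without smaller slopes for Rorb, Rora and Bhlhe40.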

Other observations

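KO-labelled array 5 was lowest in several genes that respond to glucocorticoid or time of day. These genes were chosen after their values were seen. Of the 12 core clock genes measured, only Per1 and Cry1 had their minimum on that array. Per1 read 8.66 there and 9.32 to 10.32 on the others, Tsc22d3, a glucocorticoid target, 7.11 against 7.64 to 8.17, and Coq10b 6.13 against 7.07 to 7.93. Among the 7 arrays rich in microglia signal it also had the lowest microglia marker mean, 10.15 against 10.36 to 10.71, and the lowest dissociation stress mean, 9.16, and their part in these values was not tested. The mean of 14 glucocorticoid response genes was 8.10 on that array and 8.42 to 8.89 elsewhere. Hlf, at 7.53, was the 1 member with its minimum on that array, while Dbp read 8.60 there, the highest of KO-labelled arrays 3 to 5.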
